A study of Mus musculus with 6 samples.

Results

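A named list of 46 mouse genes for neural adhesion and synapse-forming proteins was examined for H3K9me3, out of 21938 that GENCODE annotates as protein-coding on the 19 autosomes and the sex chromosomes. The genes were taken by symbol from a list made with earlier results of these data known. H3K9me3 had been profiled by ChIP-seq in neural stem cells (NSCs) cultured from the cerebral cortex of C57BL/6J mouse fetuses and grown with EGF and FGF. Every culture carried a lentivirus: 2 libraries with genotype CTR came from cells given a scrambled shRNA (shCTR), and 2 libraries with genotype PHF8 knockdown came from cells given an shRNA against PHF8 (shPHF8). The transduced cells were used as a mixed population rather than as a clone, and the labels do not say whether replicates were separate cultures, so p-values measure only the spread between these libraries.

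H3K9me3 is the histone mark of compact, transcriptionally silent chromatin, and in most tissues it is richest at repeats and at genes of other lineages. PHF8 is a histone demethylase of active promoters that removes lower methylation states, and the comparison asked how the distribution of H3K9me3 differed when it was depleted. The listed genes encode the surface proteins with which neurons recognise each other and build synapses, such as neurexins, neuroligins, contactins and teneurins, together with their cytoplasmic scaffolds. They are best known from differentiated neurons, and many belong to the longest genes of the genome.

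The deposited lists give the start and end of each broad peak and nothing on its height, so the measurement used throughout is the number of bases under a peak (covered bases). The libraries held 53307 and 54108 peaks in shCTR, and 44316 and 55555 in shPHF8. Peaks covered 156.8 and 159.7 Mb of the genome in shCTR, and 219.2 and 197.1 Mb in shPHF8. The covered total was therefore 1.32 times higher in shPHF8, a log2 difference of 0.40. shPHF8 replicate 1 stood apart, with the fewest peaks and a median peak width of 4200 bp against 2400, 2400 and 2800 bp in the others. Read depth is not part of the lists. The paper's appendix gives read counts per library, lowest for shPHF8 replicate 2, and these were not used here. The knockdown of PHF8 itself cannot be checked from the lists. Of 12 NSC marker genes, 8 had a peak within 3 kb of the 5′ end in some library. The same held for 1 of 6 neuronal, 2 of 5 glial and 2 of 4 microglial or vessel markers. In all 4 libraries the counts were 3, 0, 1 and 2 in the same order. Among the 21938 protein-coding genes, 6144 had such a peak in some library and 2435 in all 4. Those counts describe the mark and not expression, and they do not settle the cell type.

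The name "long" held for most of the list. The median member spanned 773.0 kb, against 17.4 kb for all protein-coding genes, and 34 of the 46 spanned 300 kb or more. The 8 members under 100 kb were Nlgn2, Lrrtm1, Lrrtm2, Cntnap1, Cntn2, Adgrl1, Ptprs and Ptprf. A peak lay in the gene body of 42 members, and in 36 of them in every library. Cntn6, Cntnap1, Lrrtm2 and Adgrl1 had no called peak in any library. Together the gene bodies made up 38.5 Mb.

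At the 5′ ends of these genes the covered bases were fewer in shPHF8. The promoter was taken as 3 kb on each side of the annotated 5′ end. Of the members' promoter bases, 8.72% and 9.55% were under a peak in shCTR (mean 9.14% ± 0.587, SD, n = 2) and 4.84% and 2.61% in shPHF8 (3.73% ± 1.58, SD, n = 2). The groups did not overlap, and the mean in shPHF8 was 0.408 times that in shCTR. An exact permutation test, two-sided, gave p = 0.333, which is the smallest p that 2 against 2 libraries allow, so that no comparison between groups here could pass 0.05. Over all protein-coding promoters the shares were 7.01%, 7.62%, 7.72% and 6.97%, a ratio of 1.00. Divided by the other protein-coding genes of the same library, the members' promoter share was 1.25 and 1.26 in shCTR, and 0.627 and 0.374 in shPHF8 (exact permutation p = 0.333). The direction stayed the same when covered bases were scaled to each library's total, with a ratio of 0.306.

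The value differed with gene length and with the choice of start site. Promoters of the 533 other genes of 300 kb or more were covered at 9.81% and 11.5% in shCTR and at 8.25% and 7.07% in shPHF8, a ratio of 0.721. The 34 members of that length were covered at 8.64% and 6.58%, against 3.22% and 1.47%, a ratio of 0.308. When the windows were laid around every annotated transcript start of a member, the shares were 7.68% and 8.09% in shCTR and 8.11% and 5.54% in shPHF8, and the ratio was 0.866 (exact permutation p = 1). The groups then overlapped, with shPHF8 replicate 1 the highest of the 4 libraries. Counting only peaks at least 5000 bp wide, the ratio turned to 1.34. The lower share in shPHF8 was therefore seen at the outermost 5′ end. The width filter cannot test it, because members' regions with peaks in both shCTR libraries only were at most 4800 bp wide.

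**Figure D1:**
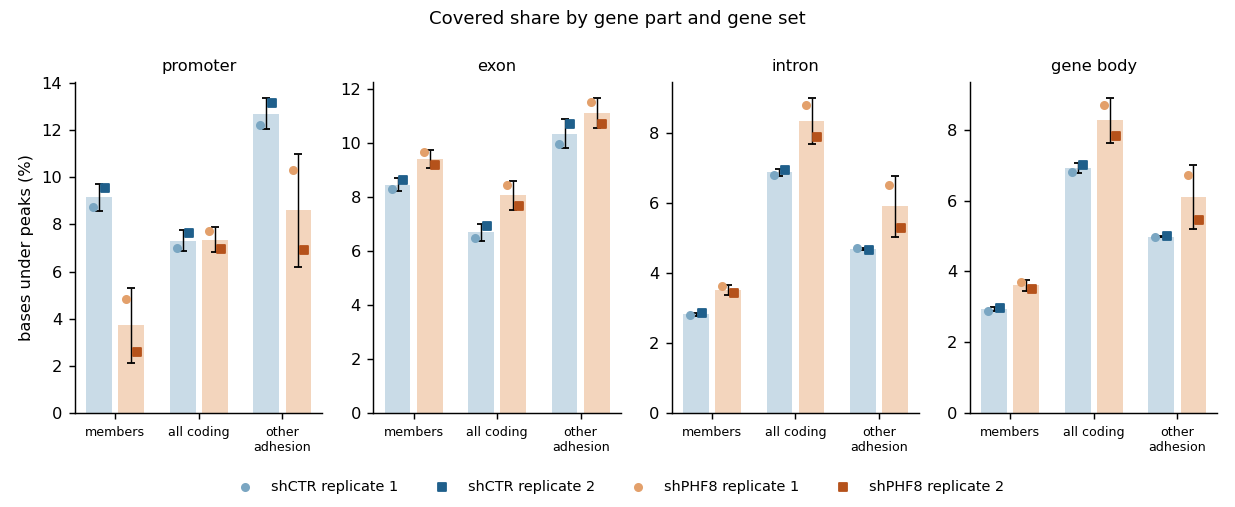
Bases under H3K9me3 peaks, in percent, for promoters (3 kb on each side of the 5′ end), exons, introns and whole gene bodies of the 46 members, of all 21938 protein-coding genes and of 60 other adhesion and synapse genes; bars are means of 2 libraries, error bars are SD, and points are libraries. Member promoters stand at 8.72% and 9.55% in shCTR and at 4.84% and 2.61% in shPHF8, while the promoters of all protein-coding genes lie between 6.97% and 7.72% in the 4 libraries.

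By gene, a promoter peak was present in 13 and 15 members in shCTR (28.3% and 32.6%) and in 6 and 4 members in shPHF8 (13.0% and 8.70%). Over all protein-coding genes the shares were 19.2% and 20.3% in shCTR and 17.3% and 18.1% in shPHF8. Over the 4 libraries, 19 members had one in any library and 14 in 2 or more. The same counts were 6144 and 4523 among the 21938 protein-coding genes, without matching for length. In 7 members (15.2%) both shCTR libraries and neither shPHF8 library had promoter coverage, against 2.12% of all protein-coding genes. Among genes of 300 kb or more the shares were 6 of 34 members (17.6%) and 6.19% of the others. The opposite pattern, both shPHF8 libraries and neither shCTR library, occurred in 1 member, against 1.01% of all protein-coding genes.

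The 7 members were Cntn4, Dlg2, Lrrtm3, Csmd1, Nlgn1, Csmd2 and Opcml. Cntn4 (chr6:105677660-106699310, plus strand), a contactin of axons, had 3800 and 2600 promoter bases covered in shCTR and 0 in both shPHF8 libraries. Dlg2 (chr7:90476672-92449247, plus strand), the postsynaptic scaffold PSD-93, had 2072 and 2472 in shCTR and 0 in shPHF8. Lrrtm3 (chr10:63928472-64090277, minus strand), a leucine-rich repeat partner of neurexins, had 1924 in each shCTR library and 0 in shPHF8. In these 3 genes the shCTR libraries had between 1924 and 3800 covered bases. Csmd1 (chr8:15892537-17535586, minus strand), a large transmembrane protein of complement-like repeats, had 2215 and 815 in shCTR. Its relative Csmd2 (chr4:127987857-128567656, plus strand) had 1944 and 144. Nlgn1 (chr3:25426215-26332460, minus strand), a postsynaptic ligand of neurexins at excitatory synapses, had 1400 and 1000. Opcml (chr9:27790775-28925410, plus strand), a GPI-anchored IgLON cell adhesion protein, had 775 in each shCTR library. All positions are those of GRCm38 (mm10), and all 7 genes stood at 0 in both shPHF8 libraries. With the window narrowed to 1 kb on each side, the pattern was left in 3 of them, Cntn4, Dlg2 and Nlgn1, and with windows around every start it was present in 6 members, all of these but Nlgn1. With only peaks of at least 5000 bp it was present in 0 members, since the shCTR peaks at these 7 promoters were all narrower than that.

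Other promoters showed mixed or opposite values. Cntn3, another contactin (chr6:102162655-102573101, minus strand), was the 1 member with the opposite pattern, at 0 in both shCTR libraries and 2700 and 2000 covered bases in shPHF8. Cntn2, the axonal contactin also called TAG-1, was the only member with a promoter peak in all 4 libraries, where 2201 and 6001 bases were covered in shCTR, and 5201 and 2801 in shPHF8. Ptprs, a receptor phosphatase that binds proteoglycans and synaptic adhesion proteins, had 2318 in each shCTR library, 1600 in shPHF8 replicate 1 and 0 in replicate 2. Lsamp, an IgLON of the limbic system, had 1200 in each shCTR library, 0 in shPHF8 replicate 1 and 1000 in replicate 2. Dscaml1, a homophilic adhesion protein, had 1828, 628, 2828 and 0 in the same order. In these genes the groups overlapped or the shPHF8 libraries disagreed. Magi2, a synaptic scaffold, had 365 in shCTR replicate 1 and 565 in shPHF8 replicate 1 only. Lrrtm1, another neurexin partner, had 1889 in shCTR replicate 2 and 1400 in shPHF8 replicate 2 only. The remaining 5 members with any promoter peak had it in a single library.

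**Figure D2:**
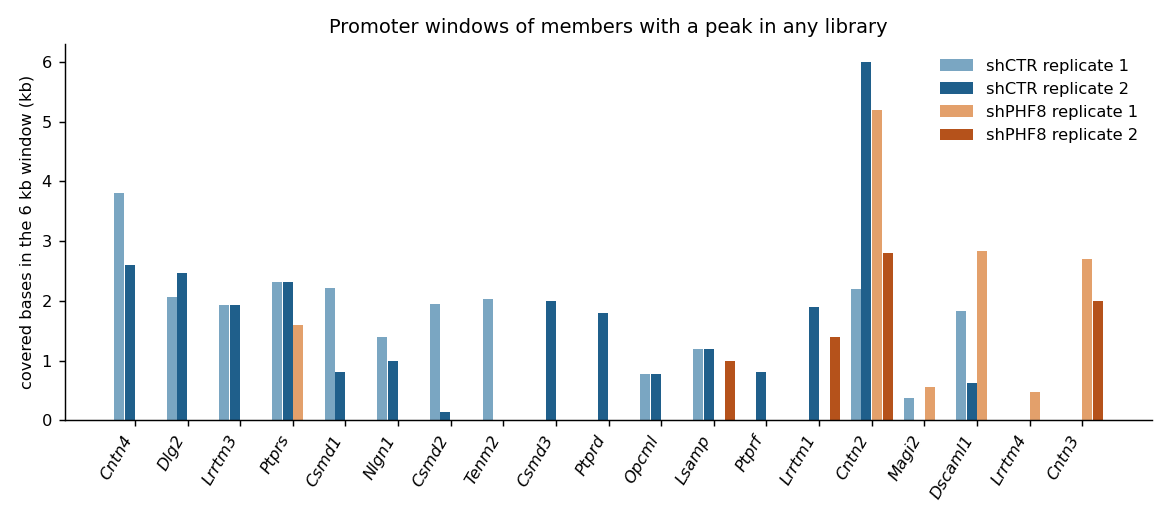
Covered bases (kb) in the window of 3 kb on each side of the 5′ end, for the 19 members with a peak there in any library, one bar per library. For Cntn4, Dlg2, Lrrtm3, Csmd1, Nlgn1, Csmd2 and Opcml both shCTR bars are above 0 and both shPHF8 bars are at 0, and for Cntn3 the reverse is seen.

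Sequences under 4 of these start-site peaks are shown to let the lost and gained regions be compared by base composition. Each is the 200-base window nearest to the 5′ end that was under a peak in both libraries of a group, given on the plus strand of GRCm38 (mm10), with CpG dinucleotides in capitals.
Nlgn1, lost, chr3:26333001-26333200: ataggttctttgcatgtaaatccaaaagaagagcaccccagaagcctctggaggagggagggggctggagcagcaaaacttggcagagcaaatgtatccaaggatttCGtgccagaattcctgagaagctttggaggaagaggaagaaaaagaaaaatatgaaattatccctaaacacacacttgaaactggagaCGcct
Csmd1, lost, chr8:17533201-17533400: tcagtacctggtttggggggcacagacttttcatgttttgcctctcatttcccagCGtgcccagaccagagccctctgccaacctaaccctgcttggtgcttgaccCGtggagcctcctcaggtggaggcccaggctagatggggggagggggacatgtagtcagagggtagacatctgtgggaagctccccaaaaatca
Dlg2, lost, chr7:90477601-90477800: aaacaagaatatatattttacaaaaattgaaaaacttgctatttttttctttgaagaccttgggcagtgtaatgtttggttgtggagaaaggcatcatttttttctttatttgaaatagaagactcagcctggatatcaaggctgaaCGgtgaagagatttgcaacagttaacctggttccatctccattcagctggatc
Cntn3, gained, chr6:102572601-102572800: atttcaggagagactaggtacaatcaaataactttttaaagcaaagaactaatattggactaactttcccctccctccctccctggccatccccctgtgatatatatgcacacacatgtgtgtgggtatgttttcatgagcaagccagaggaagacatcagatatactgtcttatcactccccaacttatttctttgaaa
The windows of Nlgn1, Csmd1 and Dlg2 had 2, 2 and 1 CpGs and GC contents of 45%, 57.5% and 35%. That of Cntn3 had 0 CpGs and a GC content of 40.5%, above the lost window of Dlg2 and below the others. CG reads the same on both strands, so 1 search covers both. In RefSeq promoters of this build (short windows around a start site), 94.6% of 32851 held at least 1 CG and the median was 7. For 33 of the members, with 52 promoters, 98.1% held one and the median was 10. The centres of the printed windows lay at -641, 2285, 1029 and 400 bp from the 5′ end (Nlgn1, Csmd1, Dlg2 and Cntn3). Their CpG counts are therefore not matched in place with those of the RefSeq promoters.

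A region was defined by merging the peaks of the 4 libraries, and was called lost where both shCTR libraries and neither shPHF8 library had a peak in it, and gained in the opposite case. Of the 40 lost regions at members, 7 touched a promoter window, against 1 of 24 gained regions and 2 of 176 covered in all 4 libraries. The same shares were not computed over all regions of the genome. Among all protein-coding genes, 465 had promoter coverage in both shCTR libraries only and 222 in both shPHF8 libraries only. The 7 lost regions of members at a promoter, in Nlgn1, Csmd2, Cntn4, Dlg2, Csmd1, Lrrtm3 and Ptprs, had a median GC content of 51.2% and 22.1 CpGs per kb. The 33 lost regions elsewhere in members had 43.7% and 8.75, and the 24 gained regions 42.8% and 7.97. Over the whole genome the values were 41.7% and 8.26. Dlg2 was the exception among the 7, with 36.3% and 4.77, and the regions of Nlgn1 and Ptprs were the richest, with 39.3 and 39.1 CpGs per kb. Several of the 7 regions lie at places with more than 1 annotation. The Cntn4 region overlaps the noncoding gene Gm15631, the Nlgn1 region chr3:26332601-26334000 lies upstream of the 5′ end and overlaps A830092H15Rik, and the Lrrtm3 region chr10:64087201-64089200 lies inside Ctnna3. The Dlg2 region chr7:90477201-90481600 lies at the outermost of 16 annotated transcript starts. At Opcml no region was lost at the 5′ end. The covered bases there belonged to a region found in all 4 libraries, chr9:27793001-27798000, with 4400 bases in each shCTR library and 2600 and 2400 in shPHF8, the latter outside the window.

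Over whole gene bodies the direction was the reverse of that at promoters. Peaks covered 2.90% and 2.97% of the members' gene body bases in shCTR (2.93% ± 0.051, SD, n = 2) and 3.71% and 3.50% in shPHF8 (3.61% ± 0.147, SD, n = 2). The groups did not overlap, and the ratio was 1.23 (exact permutation p = 0.333). All protein-coding genes together had a ratio of 1.20, and after scaling to each library's total the members' ratio turned to 0.937, so the higher coverage did not exceed that of the libraries as a whole. Introns were covered at 2.80% and 2.86% in shCTR and 3.63% and 3.43% in shPHF8, a ratio of 1.25. Exons outside the promoter windows were covered at 8.29% and 8.63%, against 9.66% and 9.18%, a ratio of 1.11. In each library, exon bases summed over members were covered more densely than those of all protein-coding genes (6.49%, 6.93%, 8.46% and 7.68%). Introns of members were covered less densely than those of all protein-coding genes (6.81%, 6.95%, 8.82% and 7.90%). The exon coverage was uneven among members. In shCTR replicate 1, Tenm4 held 9382 and Tenm3 4952 of the 39140 covered exon bases. Opcml, Cntn5, Ptprd, Cntnap2 and Dlg2 had 0 in every library. The higher exon share therefore does not describe each member.

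Weighted for length, the members as a whole were less covered than other genes in every library. The other protein-coding genes, weighted to the members' length in 5 length classes, were covered at 4.94%, 5.02%, 6.85% and 5.94% in shCTR replicates 1 and 2 and shPHF8 replicates 1 and 2. Members stood at 0.586, 0.592, 0.542 and 0.590 of those values, a ratio of 0.961 between the groups (exact permutation p = 0.667). The spread was set by shPHF8 replicate 1: without it, the ratio was 1.00. Among genes over 1000 kb, 17 members stood at 2.06% in both shCTR libraries and 2.65% and 2.47% in shPHF8, and 42 others at 4.33% and 4.39%, then 6.15% and 5.20%. By the median gene, members of that class were not lower, at 1.28% against 1.24%, while those of 300 to 1000 kb stood at 1.93% against 3.65%. The 4 members of 30 to 100 kb were covered more than the others of that length in 3 of the 4 libraries, at 8.70%, 10.2%, 10.3% and 5.92% against 6.81%, 7.07%, 8.53% and 7.74%. The 60 other adhesion and synapse genes, such as Sdk1 and Lrfn2, had gene bodies covered at 4.98% and 4.99% in shCTR and 6.73% and 5.46% in shPHF8, and promoters at 12.2%, 13.2%, 10.3% and 6.90%, a promoter ratio of 0.678.

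Gene by gene, covered bases in the body were higher in both shPHF8 libraries than in both shCTR libraries in 18 of 42 members with a peak (42.9%), against 27.6% of 10353 protein-coding genes with a peak, and lower in 3 (7.14%), against 12.9%; with bases scaled to each library's total the counts became 10 higher and 9 lower, and those of all protein-coding genes turned from 2854 higher and 1334 lower to 1532 and 3085. In 21 members the groups overlapped. Length again moved with this count, since among genes of 300 kb or more 17 of 33 members with a peak (51.5%) and 47.6% of the others were higher. Among the 60 other adhesion and synapse genes, 52 had a peak, 15 were higher and 13 lower.

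**Figure D3:**
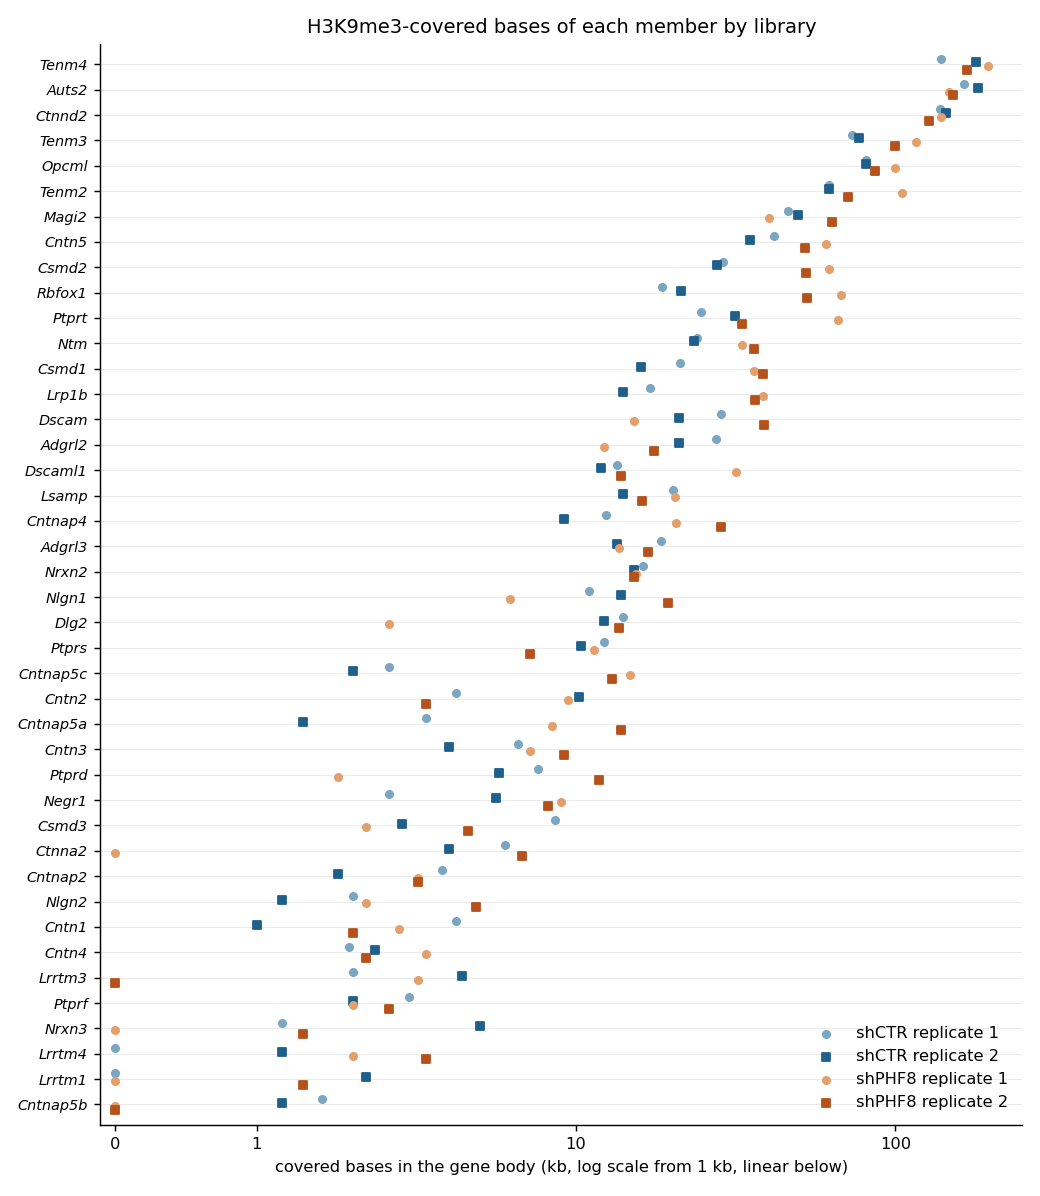
Covered bases in the gene body (kb, log scale from 1 kb and linear below) for the 42 members with a peak in any library, one point per library, ordered by the mean. The shPHF8 points lie to the right of both shCTR points in 18 members, with wide gaps at Cntnap5c and Rbfox1, and to the left in Auts2, Adgrl2 and Cntnap5b.

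The covered bases were unevenly divided among the genes. Tenm4, Auts2, Ctnnd2, Tenm3 and Opcml made up 11.6% of the members' length and held 53.4% and 57.9% of their covered bases in shCTR and 48.9% and 47.0% in shPHF8. Without these 5 genes, the ratio of the other members' gene bodies was 1.44. The median over all 46 members was 1.82% as a mean of the 4 libraries, against 0% over all 21938 protein-coding genes, of which 10353 had a peak. Over the protein-coding genes with a peak the median was 9.34%, above that of the members. Length was not matched here.

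The teneurins are large transmembrane proteins that bind latrophilins across the synapse. Tenm4 had the most covered bases of all members, with 139400 and 178293 in shCTR and 195493 and 167893 in shPHF8, which overlap. Tenm3 had 73000 and 76800 in shCTR and 116319 and 99919 in shPHF8, a ratio of 1.44. Tenm2 had 62200 and 62000 against 104545 and 71000, a ratio of 1.41 to which shPHF8 replicate 1 contributed most. Both were higher in shPHF8 without overlap, but only Tenm3 stayed so after scaling to the library total. The widest region covered in all 4 libraries at any of the 10 most covered members was in an intron of Tenm4, 48600 bp wide at chr7:96554601-96603200, where the gene overlaps Gm15414. Their receptors differed: Adgrl2 had 27400 and 21000 in shCTR and 12200 and 17600 in shPHF8, a ratio of 0.616 and lower in both, also after scaling. Adgrl3 had 18400 and 13400 against 13600 and 16800, with overlap.

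Auts2, a nuclear and cytoplasmic protein of neuronal development, showed the largest number of lost regions. It had 163800 and 181600 covered bases in shCTR and 147000 and 152000 in shPHF8, a ratio of 0.866 and a difference of -23200 bases. It held 7 lost and 0 gained regions, all 7 in introns and 1600 to 4800 bp wide. Its widest shared region, of 27000 bp near the 3′ end, was kept at 24400 bases in each shCTR library and at 26600 and 23600 in shPHF8. Rbfox1, a splicing regulator of neurons, went the other way, with 18600 and 21400 in shCTR and 67600 and 53000 in shPHF8, a ratio of 3.02. Its difference of 40300 bases was the largest of all members, and it held 1 gained and 0 lost regions. Its widest shared region, at chr16:6119801-6128600, was covered over 1000 and 1600 bases in shCTR and over 8800 and 4800 in shPHF8. The gained region accounted for 2600 and 3200 of the bases in shPHF8. Of the 29 regions of Rbfox1, 19 were found in a single library, 6 of them in shPHF8 replicate 1, 9 in replicate 2, and 2 in each shCTR library. Part of the higher coverage thus lay at different places in the 2 shPHF8 libraries.

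The catenins and scaffolds anchor adhesion proteins to the cytoskeleton and to receptors, and none of the 4 was higher in both shPHF8 libraries. Ctnnd2 (delta-catenin) had 138200 and 144000 in shCTR and 139400 and 127200 in shPHF8, and 4 lost regions. Magi2 had 46200 and 49400 against 40200 and 63200, with 2 lost regions. Dlg2 had 14000 and 12200 against 2600 and 13600, with 2 lost regions. Ctnna2 (alpha-N-catenin) had 6000 and 4000 against 0 and 6800. A region shared with Lrrtm1 held 2200 of its bases in shCTR replicate 2 and 1400 in shPHF8 replicate 2. In all 4 genes the shCTR and shPHF8 values overlapped as deposited. After scaling to the library total, Ctnnd2 and Dlg2 were lower in both shPHF8 libraries. The 8 lost regions of this group stood against 0 gained ones.

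The CSMD proteins and Lrp1b, an endocytic receptor of the LDL receptor family, were higher in 3 of 4 genes, and all 3 stayed higher after scaling. Csmd2 had 28800 and 27600 in shCTR and 62200 and 52400 in shPHF8, a ratio of 2.03. Csmd1 had 21200 and 16000 against 36064 and 38400, a ratio of 2.00, although its promoter went the other way. Lrp1b had 17000 and 14000 against 38400 and 36400, a ratio of 2.41. Csmd3 had 8600 and 2863 against 2200 and 4600, with overlap. The Lrp1b gained region had 80.8% of its bases soft-masked as repeats, against a median of 17.2% over the 24 gained regions, and the gained region of Cntn4 came next with 74.8%.

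The contactin-associated proteins, which pair with contactins at nodes and synapses, had the lowest mean covered share of the 10 groups of genes in shCTR, 0.408%, against 1.09% in shPHF8. Cntnap5c had 2600 and 2000 in shCTR and 14800 and 13000 in shPHF8, a ratio of 6.04. Cntnap5a had 3400 and 1400 against 8400 and 13800, a ratio of 4.62. Cntnap4 had 12400 and 9200 against 20600 and 28400, a ratio of 2.27. These 3 also stayed higher after scaling, and held the group's 4 gained regions with 0 lost. The ratios of Cntnap5c and Cntnap5a divide by few covered bases in shCTR. A single library held 3 of 6 regions in Cntnap5c, 3 of 6 in Cntnap5a and 5 of 10 in Cntnap4. Cntnap5b had 1600 and 1200 against 0 and 0. Cntnap2, mutated in a human epilepsy syndrome, had 3800 and 1800 against 3200 and 3200. Cntnap5a, Cntnap5b and Cntnap5c are paralogs, and how the aligner treated reads that match more than 1 of them is not given in the sources used here.

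Contactins are GPI-anchored immunoglobulin proteins of axons. Cntn5 had 41800 and 35000 in shCTR and 60800 and 52200 in shPHF8, a ratio of 1.47. Cntn3 had 6600 and 4000 against 7200 and 9200. Both were higher without overlap as deposited and overlapped after scaling. Cntn2 had 4200 and 10256 against 9456 and 3400. Cntn1, which binds at the node of Ranvier, had 4200 and 1000 against 2800 and 2000. Cntn4 had 1941 and 2341 against 3400 and 2200. The groups overlapped in these 3 genes. Cntn4 held a lost region over its 5′ end and a gained region of 4600 bp near its 3′ end.

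Among the IgLON and DSCAM proteins, Opcml had 81200 in both shCTR libraries and 100000 and 86600 in shPHF8, but was lower in both after scaling. Ntm had 24000 and 23400 against 33000 and 36200, a ratio of 1.46, and overlapped after scaling. Negr1 had 2600 and 5600 against 9000 and 8200, and stayed higher after scaling. The Opcml gene held 3 gained and 3 lost regions within its first 500 kb, and Ntm, its neighbour on the chromosome, 2 of each. Dscaml1 had 13400 and 12000 against 31800 and 13800. Dscam, a protein of self-avoidance between neurites, had 28400 and 21000 against 15200 and 38800. Lsamp had 20200 and 14000 against 20400 and 16079. In Dscaml1 and Dscam the 2 shPHF8 libraries differed by more than the groups.

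The receptor phosphatases had 1 higher gene. Ptprt had 24600 and 31400 in shCTR and 66200 and 33200 in shPHF8, a ratio of 1.78 to which replicate 1 contributed most, and overlapped after scaling. Ptprs had 12200 and 10400 against 11400 and 7200, with 2 lost regions near its 5′ end, and was lower in both shPHF8 libraries after scaling. Ptprd had 7600 and 5761 against 1800 and 11800. Ptprf, the phosphatase also called LAR, had 3000 and 2000 against 2000 and 2600.

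Neurexins and neuroligins, the best known trans-synaptic pair, held 2 lost and 0 gained regions. Nrxn2, a presynaptic receptor, had 16169 and 15169 in shCTR and 15369 and 15200 in shPHF8. Nrxn3 had 1200 and 5000 against 0 and 1400, with 1 lost region. Nlgn1 had 11000 and 13800 against 6200 and 19400. The groups overlapped in these 3 genes as deposited; after scaling to the library total, Nrxn2 and Nrxn3 were lower in both shPHF8 libraries. Nlgn2, the neuroligin of inhibitory synapses, had 2000 and 1200 against 2200 and 4879, and was the 1 gene of this group that was higher in both shPHF8 libraries, but not after scaling. The LRRTM proteins were thinly covered. Lrrtm3 had 2000 and 4400 against 3200 and 0. Lrrtm4 had 0 and 1200 against 2000 and 3400, which was higher in shPHF8 also after scaling. No region of Lrrtm4 was covered in both shPHF8 libraries, so the bases lay at different places. Lrrtm1 had 0 and 2200 against 0 and 1400, all in the region chr6:77243801-77246000, which also lies in an intron of Ctnna2 and is counted for both members.

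Gained regions lay at 16 members (34.8%), against 4.9% of all protein-coding genes, and lost regions at 20 (43.5%), against 8.52%. Among genes of 300 kb or more, a gained region lay at 16 of 34 members (47.1%) and 35.3% of the others, and a lost region at 17 (50.0%) and 46.2%. Per Mb, those 34 members had fewer of both kinds, 0.641 gained and 0.961 lost regions against 1.15 and 1.76 in the others. In all, 8 members had gained regions only, 12 lost only, 8 both and 18 neither. The 24 gained and 40 lost regions (3.89% and 6.48%) stood beside 176 regions covered in all 4 libraries (28.5%), and 377 covered in some other combination (61.1%). Over all regions of the genome the shares were 4.28% gained, 5.03% lost, 37.9% in all 4 libraries and 52.8% other. The widest differences were thus fewer regions covered in all 4 libraries at members and more in other combinations. At members, 35.5% of all regions were found in a single library, against 29.7% of all 71107 regions of the genome. The gained regions were 2400 to 7400 bp wide with a median of 4000 bp, and the lost ones 1000 to 4800 bp with a median of 3000 bp. Both medians lay between the 5200 bp of the members' regions covered in all 4 libraries and the 2600 bp of the 377 other regions.

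**Figure D4:**
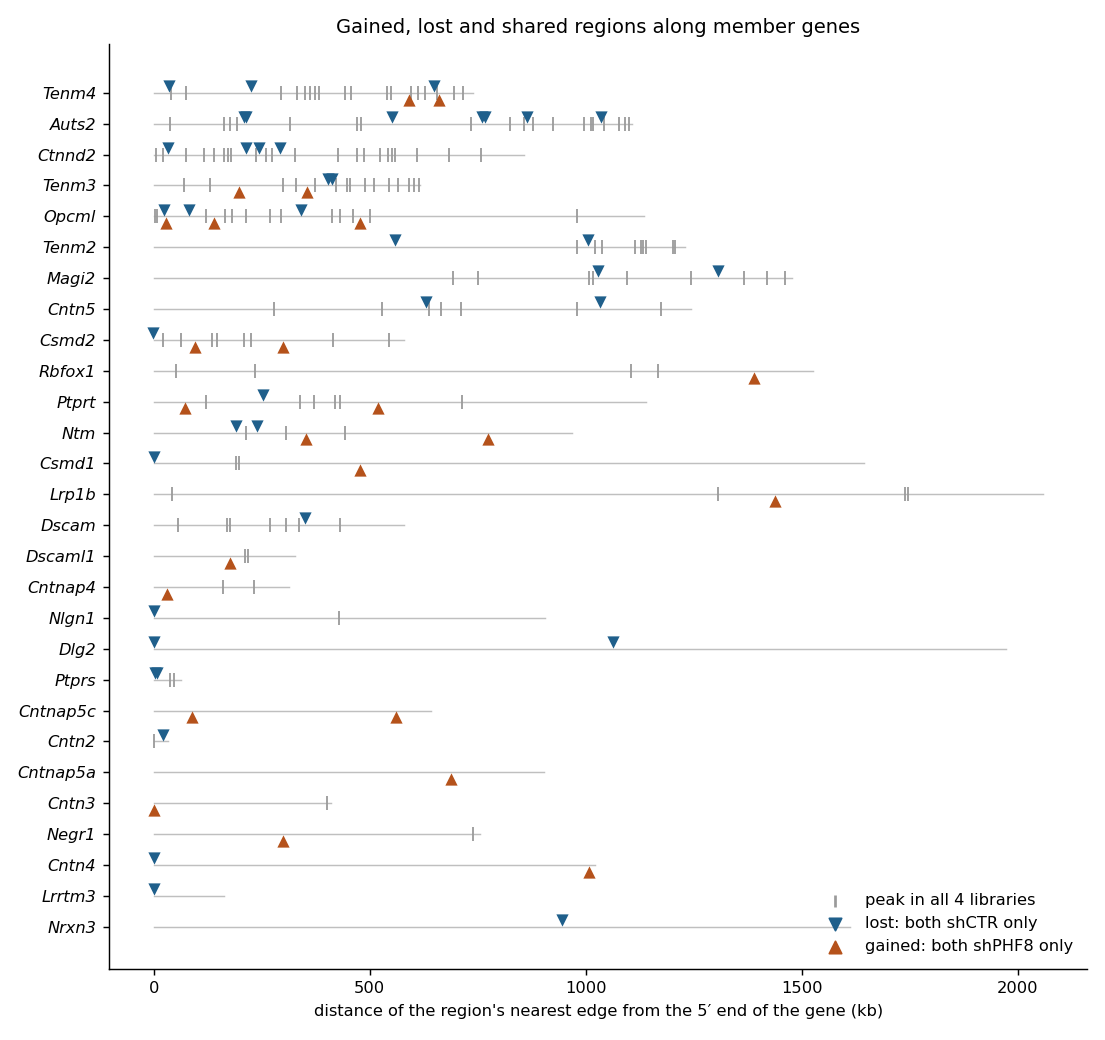
Regions along the 28 members with a gained or lost region, by the distance (kb) of the region's nearest edge from the 5′ end of the gene; grey lines are gene bodies, grey ticks regions covered in all 4 libraries, downward triangles lost regions and upward triangles gained regions. Lost regions sit at or near 0 kb in Nlgn1, Csmd2, Csmd1, Dlg2, Cntn4, Lrrtm3 and Ptprs, and 7 lie within Auts2.

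Introns held 19 of the 24 gained and 29 of the 40 lost regions. The gained regions that reached an exon were in Tenm3, Ntm, Rbfox1 and Cntnap5c, and that of Cntnap5c was the widest of all, at 7400 bp and 0 and 0 covered bases in shCTR against 7400 and 5200 in shPHF8. Windows from the middle of 3 gained regions, picked after their values were seen to show the most changed gene, the steepest ratio and the gene whose 5′ end was lost, are given on the plus strand of GRCm38 (mm10) with CpG in capitals.
Rbfox1, gained, chr16:7276201-7276400: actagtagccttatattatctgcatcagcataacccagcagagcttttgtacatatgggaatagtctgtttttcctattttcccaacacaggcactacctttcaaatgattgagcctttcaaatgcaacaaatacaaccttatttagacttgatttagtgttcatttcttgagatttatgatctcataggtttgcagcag
Cntnap5c, gained, chr17:58334201-58334400: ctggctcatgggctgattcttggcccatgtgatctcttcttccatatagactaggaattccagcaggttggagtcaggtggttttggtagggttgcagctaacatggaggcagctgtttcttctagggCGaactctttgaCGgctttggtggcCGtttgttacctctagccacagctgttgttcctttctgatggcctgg
Csmd1, gained, chr8:17055801-17056000: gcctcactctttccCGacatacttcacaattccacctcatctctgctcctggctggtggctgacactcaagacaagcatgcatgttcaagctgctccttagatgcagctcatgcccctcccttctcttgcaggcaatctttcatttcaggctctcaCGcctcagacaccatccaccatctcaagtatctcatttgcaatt
They had 0, 3 and 2 CpGs and GC contents of 36.0%, 51.0% and 50.0%, and none of their bases were soft-masked. Soft-masked repeats made up 17.2% of the median gained, 16.5% of the median lost and 19.3% of the median shared region of members, below the 27.5% of member gene bodies as a whole and the 36.4% of the genome.

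Along the gene, the 34 members of 300 kb or more were cut into 5 equal parts from the 5′ to the 3′ end. The first of these was covered at 3.37% and 3.32% in shCTR and 3.51% and 3.59% in shPHF8, a ratio of 1.06. The last was covered at 3.56% and 3.80% against 5.48% and 4.64%, a ratio of 1.37. The parts between had ratios of 1.29, 1.24 and 1.34. Among the 533 other genes of that length the first had a ratio of 1.17 and the last 1.31. In both sets the groups did not overlap in any of the 5 parts, and the smallest ratio was at the 5′ end. Over all 46 members, 15 of the 40 lost regions lay in the first part, including those at the promoter and in the 5′ flank, and 7 of the 24 gained regions did. The same counts were not made for other genes, so they cannot be read as particular to members. With shares scaled to the library total, the members' ratios became 0.809, 0.985, 0.944, 1.02 and 1.04 from the 5′ to the 3′ end, and those of the others 0.890, 0.937, 1.02, 1.03 and 0.994.

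**Figure D5:**
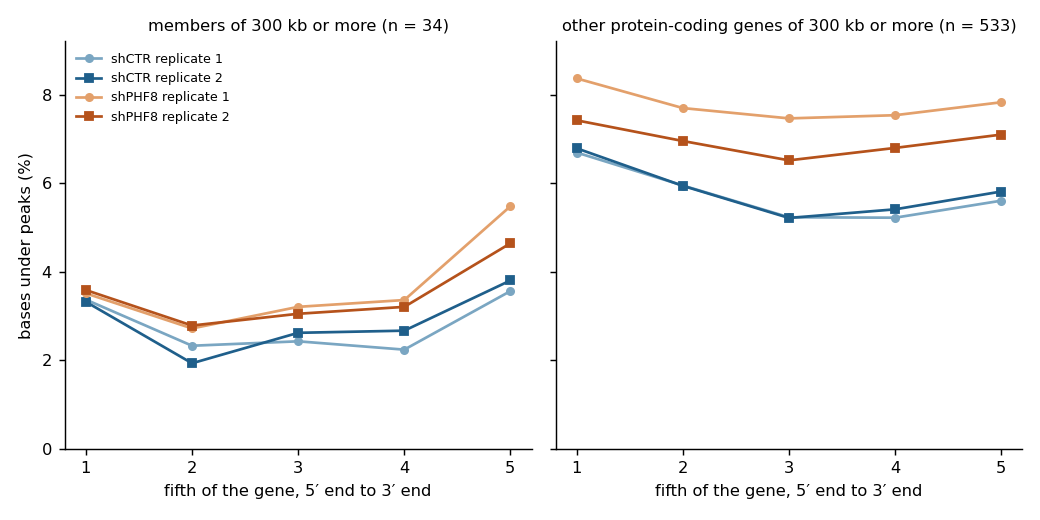
Bases under peaks (percent) in each of 5 equal parts of the gene from the 5′ to the 3′ end, one line per library, for 34 members and 533 other protein-coding genes of 300 kb or more. In members the 4 libraries lie between 3.32% and 3.59% in the first part, and shPHF8 reaches 5.48% and 4.64% in the last, against 3.56% and 3.80% in shCTR.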

How the data were processed

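The data are 4 lists of H3K9me3 peaks, 1 per ChIP-seq library. Single-end reads were aligned to mm10 and broad peaks were called with SICER2 in each library by the authors. The study's methods name SOAP2 as aligner, whereas the submitters' processing notes name Bowtie2 2.3.5.1 and SAMtools 1.9. The window, gap, FDR and use of the inputs in peak calling are not given in the sources used here. The deposited lists hold positions of peaks in bp, with no counts, heights or p-values, and the 2 inputs were not analysed here. Because each library was called separately, covered length moves with how much was called, and reads of repeated sequence may be placed unevenly.

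From these lists, covered bases were computed per library for promoters (3 kb on each side of the 5′ end), exons, introns and gene bodies of GENCODE M21, with Python 3.11.15, NumPy 2.4.6 and pandas 2.3.3. Peaks of the 4 libraries were merged into 71107 regions, and a region was assigned to a gene if it touched the body or 3 kb flanks by at least 1 bp. Analysis was limited to the 19 autosomes and the sex chromosomes, and 2 peaks of each library fell elsewhere. Other genes were weighted to the members' length in 5 classes divided at 30, 100, 300 and 1000 kb. Groups were compared by exact two-sided permutation tests over libraries, and genes by counts beside the same count over all protein-coding genes. The arithmetic was tested on simulated peak lists and against bedtools 2.31.1. Sequences come from RefSeq GRCm38.p6, and base composition and repeats from its soft-masked letters.

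Genes named with values per library were those with a gained or lost region, the 10 with the most covered bases, those with a promoter peak in at least 2 libraries, and those differing by at least 10000 bases without overlap; others were added as examples. The members and lists were chosen with earlier results of these data known. Settings tried included leaving out each library, peaks of at least 5000 bp, merging within 5 kb, and an equal covered length. Same-numbered replicates share only a number. The sequence of 1 window is not reported here.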

Additional observations from a re-analysis of the deposited data

How the results depend on the processing

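Of 101 values under other settings, 71 kept their direction, or stayed within 1.5 times for counts. Scaled to the library total, the ratios of gene bodies, introns and exons turned to 0.937, 0.949 and 0.848, and members higher and lower in shPHF8 became 10 and 9. When each library was cut to the same covered length by keeping its widest peaks, the ratios were 0.872, 0.886 and 0.763, the counts 7 and 19, and 7 members had a gained region. With peaks of at least 5000 bp, the promoter ratio was 1.34, and 10 members were higher and 1 lower. Under that setting 3 members had a lost region, and 0 lost promoter coverage in both shPHF8 libraries. It leaves out every lost region of the main setting, the widest being 4800 bp, so it cannot test the promoter loss. With a 1 kb window 3 members lost promoter coverage. With peaks merged within 5 kb, 5 members were lower. Against all genes without length classes the relative gene body ratio was 1.03. Leaving out 1 library gave 0.920 to 1.00 for that ratio, 19 to 29 members with a gained region, 24 to 32 with a lost region and 7 to 11 lower, since the rule then asks for fewer libraries. The causes of the other changes were not tested. The alternatives for lost promoter coverage, the ratio without the 5 most covered genes and the count among members with a peak in every library were added after seeing the data.

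Same-numbered replicates did not deviate together (correlation 0.0018 over 10353 genes), so the numbers were not taken as pairs. With the replicate number as a block, the ratios were 1.23 for gene bodies, 0.389 for promoters, 1.25 for introns, 1.11 for exons and 0.960 relative to other genes, and 19 members were higher and 5 lower; the numbers of members with a gained or a lost region are 16 and 20 by construction. With 2 libraries per group, no difference could pass 0.05. The lists hold no read counts, and a region without a called peak cannot be read as free of the mark.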
